A study of Mus musculus with 3 samples.

Results

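The genes described here are those of 4 galectins, Lgals1, Lgals3, Lgals8 and Lgals9, and of galectin-3 binding protein, Lgals3bp. They were taken by gene symbol, and 5 of the 55536 genes in the tables carry these symbols. The data come from 3 ribosome-depleted total RNA libraries of the cytosolic fraction of C57BL/6J mouse macrophages grown from bone marrow, all labelled as 0 minutes after 100 ng/ml lipid A. Lipid A is the part of bacterial lipopolysaccharide that the receptor TLR4 recognises. The labels call them biological replicates 1, 2 and 3. They form 1 group and carry 1 donor label, and the labels do not say whether they are separate cultures or separate animals. SDs therefore describe the spread between these samples alone, and how much of it is technical was not tested. Other times and fractions were not analysed here, so conditions could not be compared.

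Galectins are lectins that bind sugars ending in galactose, mainly N-acetyllactosamine, through a conserved carbohydrate recognition domain. They are made in the cytosol without a signal peptide and reach the cell surface by a route outside the classical secretory pathway. Galectin-1 pairs with itself, galectin-3 joins its domain to a long flexible tail through which it assembles, and galectins 8 and 9 carry a pair of domains joined by a linker. In macrophages galectin-3 is an abundant lineage product, and galectins 3, 8 and 9 gather on damaged endosomes and lysosomes, where sugars of the inner membrane face become exposed. Galectin-3 binding protein differs from them: it is a secreted, heavily glycosylated scavenger receptor domain protein that galectins bind.

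The coding parts in which the annotated transcripts differ are shown first, because the transcript shares given further on turn on them. All coordinates are on mm10 and sequences come from the GENCODE M21 transcripts. In Lgals9, the exon at chr11:78969714-78969806 on the minus strand is coding, in the part that encodes the linker between both domains. Lgals9-203 holds its 93 bases, or 31 codons, in capitals here with the ends of the neighbouring exons in lower case, and Lgals9-202 joins those ends directly.
Lgals9-203: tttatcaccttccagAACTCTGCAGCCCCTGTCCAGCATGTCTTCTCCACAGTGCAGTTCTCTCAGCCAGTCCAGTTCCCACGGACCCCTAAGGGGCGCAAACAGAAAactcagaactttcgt
Lgals9-202: tttatcaccttccagactcagaactttcgt
Lgals8-208 has 27 more coding bases, or 9 codons, at the end of exon 5 (chr13:12453258-12453284, minus strand) than Lgals8-201. They are in capitals.
Lgals8-208: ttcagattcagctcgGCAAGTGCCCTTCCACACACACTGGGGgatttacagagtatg
Lgals8-201: ttcagattcagctcggatttacagagtatg
In Lgals3bp, the full-length transcript Lgals3bp-201 joins exon 4 to exon 5, while the short model Lgals3bp-205 joins the same last 31 bases of exon 4 to a point inside the last exon. Capitals mark the first 30 bases after the junction (chr11:118396814-118396843 in Lgals3bp-201 and chr11:118393376-118393405 in Lgals3bp-205, minus strand).
Lgals3bp-201: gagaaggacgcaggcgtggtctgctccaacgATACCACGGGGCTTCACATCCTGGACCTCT
Lgals3bp-205: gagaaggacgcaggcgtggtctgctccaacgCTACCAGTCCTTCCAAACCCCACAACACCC

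Expected counts over genes came to 26318761, 41897257 and 56290298 in replicates 1, 2 and 3, and the median gene had an SD of 0.12 in log2 CPM between libraries. Of 12 macrophage markers, 12 reached at least 1 TPM in every library, and their levels summed to 8514, 5988 and 6556 TPM. TPM is a level per transcript length with a fixed sum per library. Over 10 lists of markers of other cell types, 4 of 64 genes did so. They were Pf4 (170 ± 17.5 TPM), Ngp (1.83 ± 0.506), Epor (1.69 ± 0.323) and Itgax (1.35 ± 0.196; SD, n = 3). Apart from the megakaryocyte and platelet list, which holds Pf4, the summed level of these lists ran from 0 to 3.26 TPM in a library. The other 5 genes of the megakaryocyte and platelet list were below 1 TPM in every library. Over all 10 lists, 14 of the 64 genes had 0 counts in all 3 libraries, among them Ly6g, Cd3e and Hba-a1. The part of other cells in the levels below was not tested. In bulk RNA, fewer cells of a type and less RNA per cell cannot be told apart.

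Lgals3 was the leading galectin gene, Lgals1 and Lgals3bp followed at means of 383 and 300 TPM, and Lgals9 and Lgals8 stood at 77.2 and 34.4 TPM, against 1341 ± 150 TPM for Lgals3 (SD, n = 3). All 5 genes reached at least 1 TPM in all 3 libraries, as 17.0% of all genes did. The median of the mean levels of the 5 was 300 TPM, beside 7.08 TPM over the 9461 genes detected in this way. All 5 are protein-coding, and 9233 of 22015 protein-coding genes outside the mitochondrial genome had a mean of at least 1 TPM. Together the 5 took 0.401 ± 0.0342% of gene counts and 0.917 ± 0.0573% of the TPM of protein-coding genes.

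**Figure D1:**
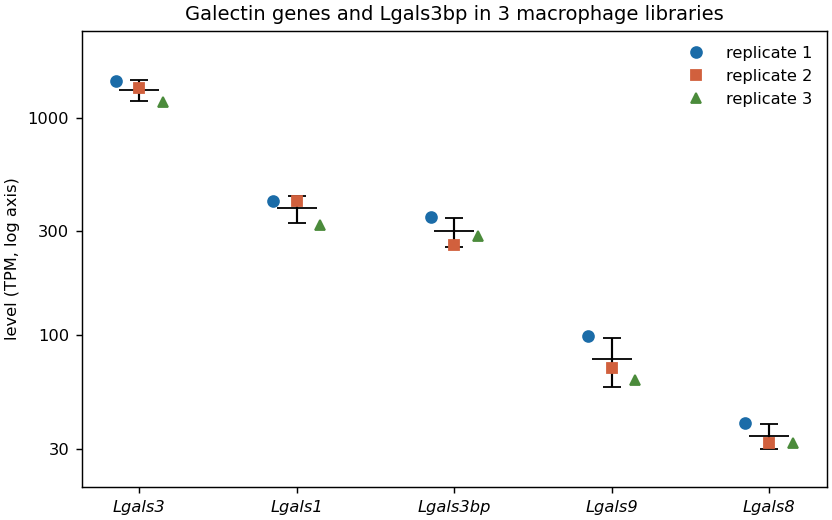
Level of each gene in TPM on a log axis. Symbols are the 3 libraries, and the bars give the mean and SD (n = 3). Lgals3 sits between 1177 and 1472 TPM and Lgals8 between 31.8 and 39.5 TPM, while the ranges of Lgals1 and Lgals3bp overlap.

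Lgals3 (chromosome 14, 47367751 to 47386160, plus strand) encodes galectin-3. It had 1472, 1373 and 1177 TPM in replicates 1, 2 and 3, from 63752, 114988 and 122854 expected counts. It ranked 14 by mean level among 22015 protein-coding genes outside the mitochondrial genome. Lgals3 alone made up 61.9, 63.9 and 62.6% of the summed TPM of the 5 genes, so its share was nearly the same in every library.

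Lgals1 (chromosome 15, 78926725 to 78930465, plus strand) encodes galectin-1, which cross-links cell surface glycoproteins as a dimer. It had 416, 413 and 321 TPM in replicates 1, 2 and 3, a mean of 383 ± 54.5 (SD, n = 3), and ranked 59. Replicate 3 lay below the other libraries. The listed processed copies Lgals1-ps1 and Lgals1-ps2 had 0 counts in every library, where the count of 0 allows up to 3 counts a library, or 0.114, 0.0716 and 0.0533 CPM.

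Lgals3bp (chromosome 11, 118392751 to 118402092, minus strand), the gene of the secreted binding protein, had 351, 260 and 287 TPM in replicates 1, 2 and 3. Its mean was 300 ± 46.7 TPM (SD, n = 3) and its rank 80. Replicate 1 was highest and replicate 2 lowest.

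Lgals9 (chromosome 11, 78962974 to 78984946, minus strand) encodes galectin-9, a tandem galectin known from human and mouse cells to rise with interferon. It had 99.0, 70.3 and 62.2 TPM in replicates 1, 2 and 3 (77.2 ± 19.4; SD, n = 3) and ranked 429. Replicate 1 stood apart from the other libraries on this scale, and the SD was 25.1% of the mean, against 11.2 to 15.6% in the other 4 genes. These SDs hold a shift of the whole library, as the median gene stood 0.23 higher in log2 TPM in replicate 1 than in the other libraries. In TPM over protein-coding genes alone, the median gene stood at -0.03 in replicate 1 against the other libraries. On that scale Lgals9 had 377, 320 and 286 in replicates 1, 2 and 3, a mean of 328 ± 46.1. Lgals8 had 147 ± 2.94 (SD, n = 3).

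Lgals8 (chromosome 13, 12439415 to 12464944, minus strand) encodes galectin-8, which in human cells draws an autophagy receptor to broken vesicles. It had 39.5, 31.8 and 31.9 TPM in replicates 1, 2 and 3 (34.4 ± 4.43; SD, n = 3) and ranked 1012. Its value is uncertain at the 3′ end, where 875 bases of the gene overlap Heatr1, a ribosome biogenesis gene on the opposite strand. Heatr1 stood at 6.87 ± 0.0586 TPM, and whether strand was used in counting is not given in the sources used here.

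Ratios within a library do not depend on how libraries are scaled. Lgals3 exceeded Lgals1 by 3.54, 3.32 and 3.67 times in replicates 1, 2 and 3, a mean log2 ratio of 1.81 ± 0.07 (SD, n = 3), with the smallest SD of the 4 ratios of neighbours in the order. Lgals1 exceeded Lgals3bp by 1.19, 1.59 and 1.12 times. That order held in each library, but the levels overlapped across libraries, and the log2 ratio of 0.36 ± 0.27 was of the size of its spread. Lgals3bp exceeded Lgals9 by 3.55, 3.70 and 4.62 times, and Lgals9 exceeded Lgals8 by 2.51, 2.21 and 1.95 times. No ranges overlapped for these pairs, and the mean log2 ratios were 1.97 ± 0.20 and 1.14 ± 0.18. With 3 libraries an exact sign-flip test cannot go below p = 0.25, so no test was made. Lgals3 over its binding partner gene Lgals3bp was 4.19, 5.27 and 4.09, highest in replicate 2.

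The remaining galectin genes were near or at 0. Lgalsl, which encodes a galectin-related protein, had 0.440, 0.380 and 0.440 TPM from 65, 100 and 152 counts. Lgals4, a galectin of the gut lining, had 0.137 ± 0.0473 TPM (SD, n = 3) from 5, 5 and 15 counts. Lgals2, Lgals7, Lgals12 and the lens gene Grifin had 0 counts in all 3 libraries, with the same limit as above. None of these 6 genes reached 1 TPM in any library.

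**Figure D2:**
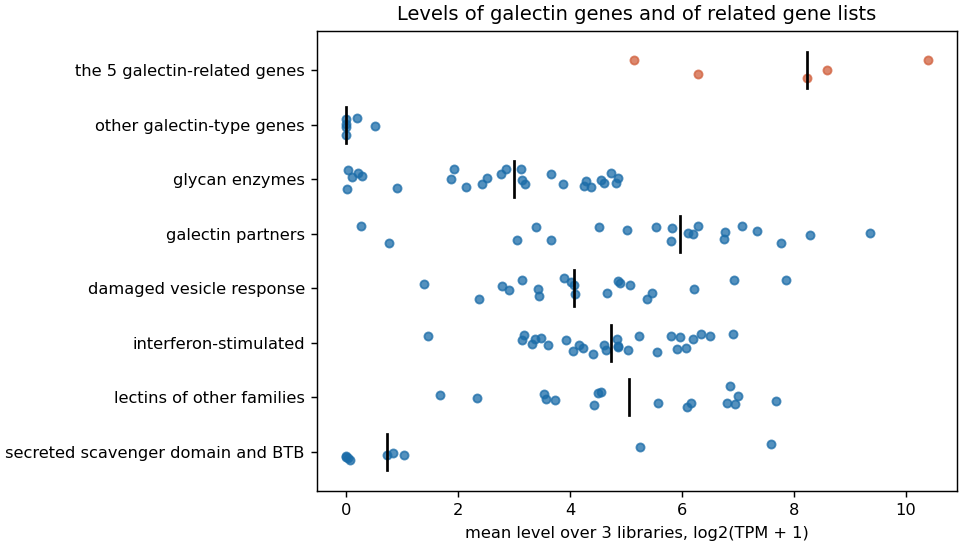
Mean level over 3 libraries, as log2(TPM + 1), of the 5 genes and of each gene on the related lists. Each point is a gene and the black line is the list's median. The 5 genes lie between 34.4 and 1341 TPM, and the other galectin-type genes at or below 0.420 TPM.

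Galectin ligands are built by enzymes of the Golgi, and 20 of 26 such genes reached 1 TPM in every library, with a median of 6.98 TPM over the list. Of all genes, 17.0% did so. This list and those below were chosen with earlier results of these data known, so their counts of detected genes describe the chosen genes alone. The highest were Man2a1 (27.8 ± 2.70 TPM), a mannosidase that trims N-glycans, Mgat1 (27.4 ± 1.63), which starts their antennae, B4galt5 (25.4 ± 2.43), a galactosyltransferase, and B3gnt2 (23.2 ± 2.11), which extends poly-N-acetyllactosamine (SD, n = 3). Mgat5, which adds the branch that favours galectin-3 binding, had 11.9, 10.6 and 12.2 TPM in replicates 1, 2 and 3 and was named after its values were seen. Below 1 TPM in every library were B3gnt5, St3gal6, Gcnt2, B4galt2 and Mgat3. Fut4 was on either side of that level. The enzyme genes were thus measured at lower levels than Lgals9 and Lgals8 in each of these libraries.

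Of 20 genes for glycoproteins or receptors reported to bind galectins, 18 reached 1 TPM in every library, with a list median of 61.7 TPM. Lamp1, a lysosomal membrane glycoprotein rich in poly-N-acetyllactosamine, led at 788, 583 and 601 TPM in replicates 1, 2 and 3. It was followed by the lipid receptor gene Trem2 (310 ± 22.1 TPM), the transferrin receptor gene Tfrc (218 ± 41.7) and the endocytic receptor gene Lrp1 (161 ± 25.2; SD, n = 3). Spn and Fn1 were below 1 TPM in every library. Havcr2, which encodes the galectin-9 receptor TIM-3, had 7.63, 7.23 and 7.11 TPM and was also named after its values were seen.

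The list for damaged vesicles covers autophagy receptors, ATG8 proteins and membrane repair. All 20 of its genes reached 1 TPM in every library, with a median of 15.8 TPM. Gabarap (232 ± 35.9 TPM), Sqstm1 (121 ± 11.6), Chmp4b (73.5 ± 8.54) and Gabarapl1 (43.0 ± 4.39; SD, n = 3) were highest. They encode an ATG8 protein, the receptor p62, an ESCRT-III subunit and another ATG8 protein, in that order. Lgals3 stood above all 20 of these genes, and Lgals8 lay among them.

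Lectins of other families were all detected as well, 16 of 16 genes at a median of 34.5 TPM. The highest were the ER chaperone lectins Calr (203 ± 28.8 TPM) and Canx (115 ± 6.80) and the C-type lectin receptors Clec4d (127 ± 9.23) and Clec7a (122 ± 35.7; SD, n = 3). Lgals3, Lgals1 and Lgals3bp each had a mean level above all 16. Among 9 genes for proteins with scavenger receptor or related domains, listed beside Lgals3bp, Cd5l (193 ± 32.2 TPM) and Msr1 (37.2 ± 4.61) reached 1 TPM in every library. Loxl3 and Marco were on either side of it at means of 1.05 and 0.790 TPM. Cd163, Ssc5d, Loxl2, Scara3 and Scara5 were below it, so the list median was 0.660 TPM.

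The libraries were next set against each other on the scale of TMM-normalized log2 CPM, which is not per length and serves for 1 gene across libraries. Lgals3 had 2337.0, 2767.1 and 2249.9 CPM in replicates 1, 2 and 3, and Lgals1 had 410.3, 491.1 and 377.0 CPM. Both were highest in replicate 2, by 0.27 and 0.32 in log2 over the mean of the other libraries. Of the 5 genes, 2 were highest in that library, against 30.9% of the 12413 genes past the filter on low counts. In TPM, all 5 genes were instead highest in replicate 1, and on that scale the median of all genes stood 0.23 higher in log2 in replicate 1 than in the other libraries and 0.13 lower in replicate 2. Relative to that shift, replicate 2 was again above the others, by 0.19 for Lgals3 and 0.31 for Lgals1. With no shift removed, both were also highest in replicate 2 in TPM over protein-coding genes alone, at 6250 and 1882. The same held in kallisto-format TPM, another estimate from the same libraries, at 750 and 201.

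Lgals9 showed another pattern, with 221.5, 186.4 and 162.7 CPM in replicates 1, 2 and 3. It was 0.35 higher in replicate 1 and 0.32 lower in replicate 3, each against the mean of the other libraries in log2 CPM. Lgals3bp had 848.7, 743.2 and 820.7 CPM, with differences of 0.12, -0.17 and 0.05 in replicates 1, 2 and 3. Lgals8 had 148.4, 142.5 and 134.6 CPM and differences of 0.10, 0.01 and -0.11. The libraries were thus closest for Lgals8. These 3 of 5 genes were highest in replicate 1, against 33.0% of all genes past the filter.

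Genes known to be induced by interferon moved with replicate 1 and are given here because Lgals9 and Lgals3bp are reported to respond to interferon. Of 28 such genes, 27 were highest in replicate 1, with a median difference of 0.65 in log2 CPM and a range of 0.24 to 1.87. Of all genes past the filter, 33.0% were highest in replicate 1, and the median difference over all of them was -0.01. The 28 listed genes were chosen with earlier results of these data known, so their count and median describe the chosen genes alone. The most abundant included the membrane tetherin gene Bst2 (178, 91.7 and 90.5 TPM in replicates 1, 2 and 3), and the antiviral genes Ifit2 (147, 56.2 and 66.0) and Ifit3 (122, 57.6 and 61.0). The exception was Oas2, highest in replicate 3. The difference of Lgals9 in replicate 1, 0.35, lay inside the range of these genes and under their median, and those of Lgals3bp and Lgals8 lay under the lowest of them, 0.24 for Irf9. In replicate 2 the list had a median of -0.37, where Lgals9 was at -0.03. The part of the interferon-stimulated genes' spread in that of Lgals9 was not tested.

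**Figure D3:**
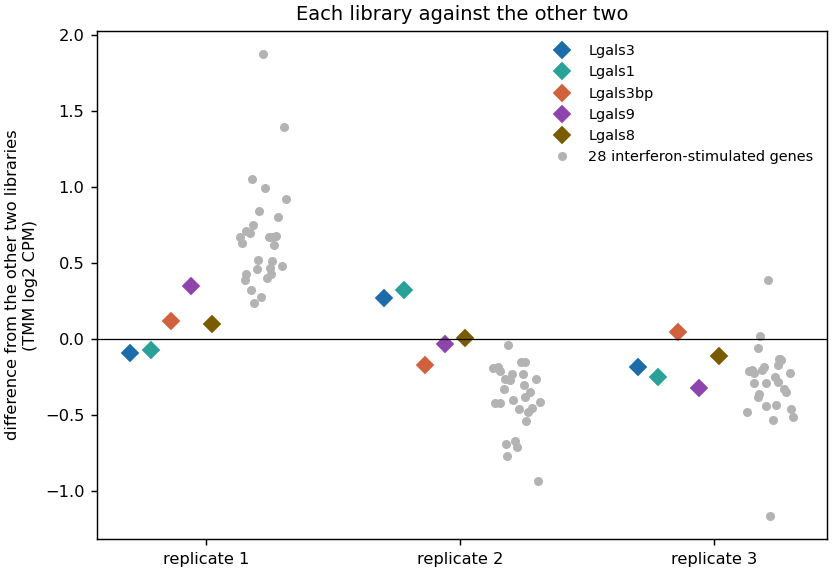
TMM-normalized log2 CPM of a gene in 1 library minus its mean in the others. Diamonds are the 5 genes and grey points the 28 interferon-stimulated genes. Lgals9 is at 0.35 in replicate 1, inside the grey range of 0.24 to 1.87, while Lgals3 and Lgals1 are highest in replicate 2 at 0.27 and 0.32.

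The SD of log2 CPM between libraries was 0.22 for Lgals9, 0.19 for Lgals1, 0.16 for Lgals3, 0.10 for Lgals3bp and 0.07 for Lgals8. Lgals9 was at percentile 76.0 of all genes past the filter and Lgals8 at percentile 25.9, and the other 3 genes lay between them. The biological coefficient of variation fitted by edgeR ran from 0.0816 for Lgals8 to 0.123 for Lgals9, against 0.145 in common over all genes.

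Promoters of 4 of the 5 genes were matched by symbol in a RefSeq table for GRCm38.p6, each running from 250 bases before the RefSeq start to 50 after it. These starts are not the 5′ ends of the M21 genes given above: they lie inside them by 22 bases in Lgals9, 133 in Lgals3bp, 3206 in Lgals8 and 6109 in Lgals3. In Lgals9 and Lgals8 the RefSeq start is the first base of Lgals9-203 and of Lgals8-202, and in Lgals3 it lies 29 bases from that of Lgals3-204. Other annotated starts of these genes were not searched. The starts of Lgals8-201 and Lgals3-203, which had the largest mean shares of their genes' TPM, lie outside the windows. No entry was matched for Lgals1. The interferon-stimulated response element core GAAANNGAAA, searched on both strands, was found in the promoter of Lgals9 alone among these 4, at 2 places. The 300 bases of Lgals9 (chr11:78984875-78985174, minus strand) are shown because this gene was highest in replicate 1 with the interferon-stimulated list. Lgals3bp and Lgals8 were highest in that library as well, without a match to the core. Whether the matches bear on the levels was not tested. Capitals mark the matches, which read TTTCTTTTTC, before the RefSeq start, and TTTCTGTTTC, after it, on the gene's strand.
Lgals9 promoter: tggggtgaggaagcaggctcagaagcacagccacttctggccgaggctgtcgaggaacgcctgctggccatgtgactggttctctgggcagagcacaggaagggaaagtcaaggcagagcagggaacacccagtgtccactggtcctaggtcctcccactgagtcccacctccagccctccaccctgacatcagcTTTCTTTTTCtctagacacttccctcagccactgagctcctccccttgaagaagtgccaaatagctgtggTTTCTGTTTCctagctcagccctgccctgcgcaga
The window of Lgals3bp had no match to the full core. It had 1 match to the shorter motif AANNGAAA, which is part of the core's letters, at chr11:118401966-118401973, inside the first exon of Lgals3bp-201.
The core was in 3.44% of the 32851 promoters in the table and in those of 12 of the 19 interferon-stimulated genes that have an entry. The shorter motif was in 23.9% of all promoters and in those of 14 of the 19. Neither was in the windows of Lgals3 or Lgals8. Shares of all are per promoter, while the counts out of 19 are per gene, and the 32851 promoters belong to 27025 genes. These are therefore not like measures. A match is a run of letters and not a measured binding site.

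The same search covered 4 more motifs. The GC box GGGCGG was found at 2 places in the Lgals3 window and is in 35.7% of all promoters. The loose NF-kB type motif GGGANNNNCC was in those of Lgals3, at 2 places, and Lgals9, at 1, and is in 20.7% of all. Neither TTCNNNGAA, of the STAT type, nor TGANTCA, of the AP-1 type, was in any of the 4 windows, and they are in 8.30% and 7.81% of all promoters.

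Transcript shares are percentages of a gene's TPM, given per annotated transcript in the RSEM-format tables and computed from TPM in the kallisto-format tables. Lgals1 was nearly all from Lgals1-201, with 99.8, 99.8 and 99.7% in replicates 1, 2 and 3. Its coding sequence has 405 bases without the stop codon, or 135 codons.

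Lgals9 was nearly all from the shorter-linker transcript. Lgals9-202, with a coding sequence of 966 bases, took 98.2, 99.0 and 97.5% of the gene's TPM in replicates 1, 2 and 3 in the RSEM-format tables and 98.0, 98.3 and 96.3% in the kallisto-format tables. Lgals9-203, which keeps the 93-base exon printed above and has 1059 coding bases, took 1.71, 0.94 and 1.65%, from 109, 76 and 154 expected reads. The estimate of those reads had a posterior SD of 20.3, 18.3 and 27.9. Lgals9-203 had 1.79, 1.33 and 1.97% in the kallisto-format tables, so it stood under 2% in each library by both estimates. The retained intron model Lgals9-204 also spans these 93 bases and had 0, 0.06 and 0.90% in the RSEM-format tables and 0.124, 0.363 and 1.78% in the kallisto-format tables. Lgals9-201 holds 90 of them and was at most 0.103% in a library.

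Lgals3 was divided among 3 transcripts that share the same 792 coding bases, or 264 codons, and differ in the first exon and the length of the 3′ end. Together they held 98.0, 98.5 and 97.8% of the gene's TPM in replicates 1, 2 and 3. Lgals3-203, whose 3′ end stops 117 bases after the last coding base, had 61.6, 38.0 and 54.2%. Lgals3-204, which runs on for 411 bases, had 30.4, 52.2 and 34.7%. Replicate 2 thus had the opposite order of both transcripts. The kallisto-format tables gave Lgals3-203 81.0, 82.1 and 76.8%, and Lgals3-204 12.9, 12.2 and 14.3%, with replicate 2 in the same order as the others. Lgals3-201 was a minor transcript in both, at 7.75 ± 1.51% and 4.95 ± 0.879% (SD, n = 3). The split between first exons and ends therefore depended on the estimate, and the coding sequence did not.

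**Figure D4:**
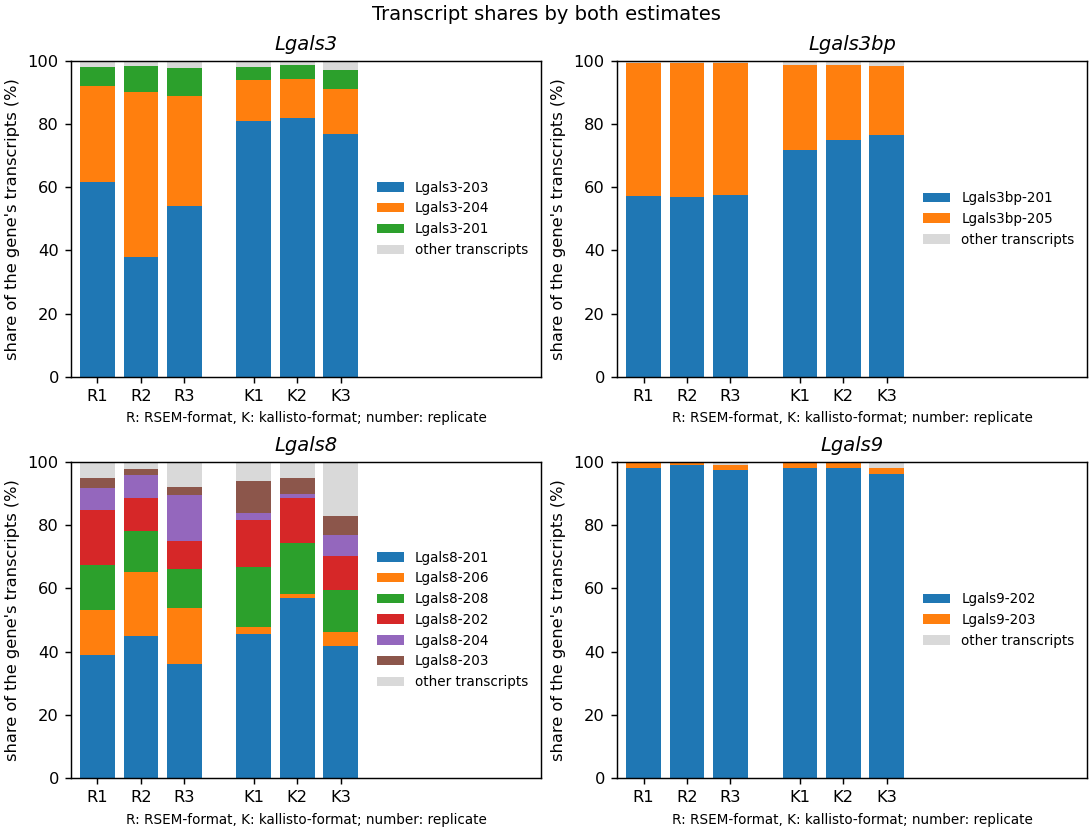
Share of each gene's TPM taken by its transcripts, in percent. Bars R1 to R3 are the RSEM-format and K1 to K3 the kallisto-format estimates of replicates 1 to 3. Lgals9-202 fills over 96% of every bar, while Lgals3-203 is at 38.0% in R2 and 82.1% in K2.

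Lgals3bp had a full-length and a short transcript model. Lgals3bp-201, with 577 codons, took 57.1, 56.8 and 57.7% of the gene's TPM in replicates 1, 2 and 3. Lgals3bp-205, annotated as incomplete at its 5′ end, took 42.4, 42.7 and 41.8%. The shares hardly moved between libraries. Of the reads, Lgals3bp-205 took only 13.8, 14.3 and 13.9%, since it is short. Of its 686 bases, 655 lie in the last exon of Lgals3bp-201, so that only the junction printed above is its own. The kallisto-format tables gave Lgals3bp-205 27.1, 23.9 and 21.8%. This bears on the order of levels: Lgals3bp-201 alone had 200, 148 and 166 TPM in replicates 1, 2 and 3, below Lgals1-201 at 415, 412 and 320 TPM in each library and with no overlap between both ranges.

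**Figure D5:**
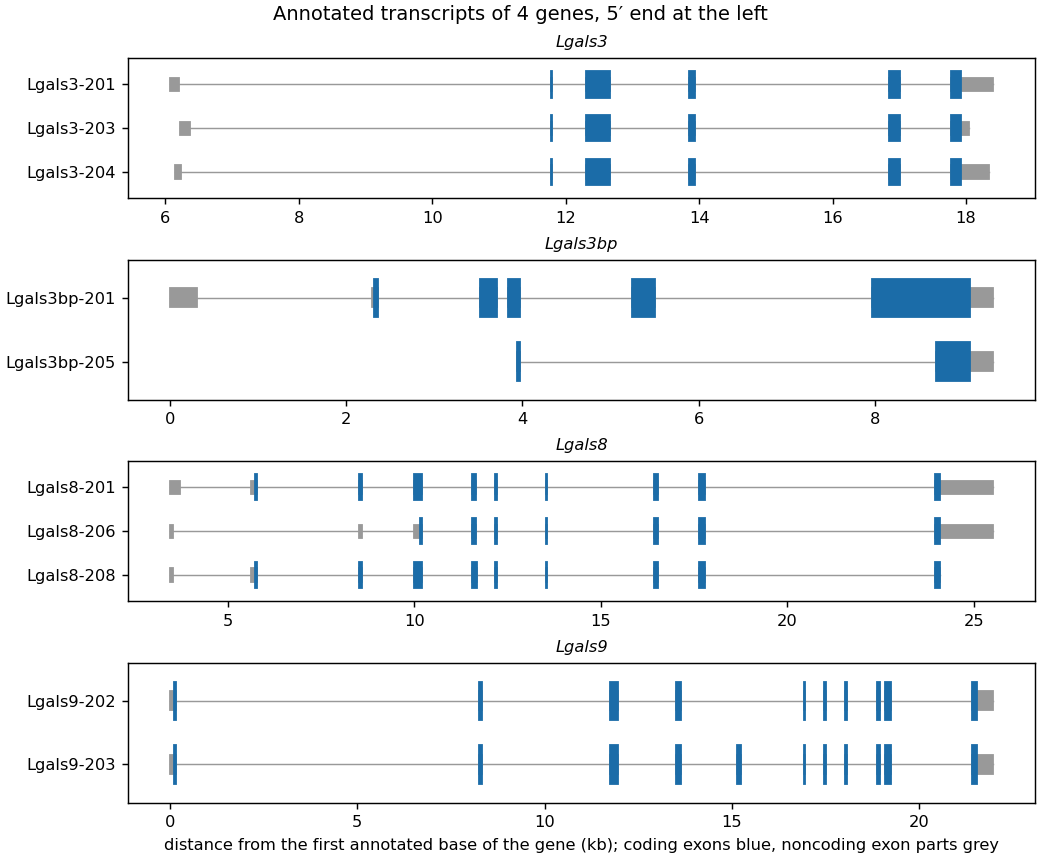
Annotated transcripts of Lgals3, Lgals3bp, Lgals8 and Lgals9, drawn to scale in kb from the first annotated base of each gene, 5′ end at the left. Coding exon parts are tall and blue. The Lgals3 transcripts share their coding exons, Lgals3bp-205 lacks the 5′ part of the gene, Lgals8-206 lacks the first 279 coding bases and Lgals9-203 has 1 more coding exon of 93 bases.

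Lgals8 had the most divided transcripts. Lgals8-201, Lgals8-202 and Lgals8-203 share a coding sequence of 948 bases, or 316 codons, that holds both galectin domains. Together they had 59.8, 57.3 and 47.2% of the gene's TPM in replicates 1, 2 and 3, and Lgals8-201 alone had 39.0, 44.8 and 35.9%. This coding sequence led in every library, and in the kallisto-format tables it had 70.7, 76.6 and 58.8%. Lgals8-202 stood at 12.5 ± 4.58% in the RSEM-format and 13.4 ± 2.20% in the kallisto-format tables, and Lgals8-203 at 2.43 ± 0.685% and 7.19 ± 2.65% in the same order (SD, n = 3).

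Lgals8-208, with the 27 bases printed above, had 14.1, 13.0 and 12.4% of Lgals8 TPM in replicates 1, 2 and 3, and 18.9, 16.2 and 13.3% in the kallisto-format tables. Of the reads in the RSEM-format tables it took only 5.96, 5.5 and 5.51%, since it is annotated with 1148 bases against 2736 in Lgals8-201. Lgals8-206 and Lgals8-207 share a coding sequence that lacks the first 279 bases, or 93 codons, of the 948. They had 17.9, 22.5 and 23.0% together in the RSEM-format tables, against 2.14, 1.19 and 5.32% in the kallisto-format tables. Lgals8-208 thus had a higher share of TPM in the kallisto-format tables in every library, at 16.2 ± 2.82% against 13.2 ± 0.853% (SD, n = 3). Both estimates come from the same libraries and annotation. The shortened coding sequence had a sizeable share by 1 of them. Lgals8-204, annotated as a retained intron with no coding sequence, had 6.96, 7.20 and 14.6% in the RSEM-format tables and 2.31, 1.21 and 6.52% in the kallisto-format tables. It was highest in replicate 3 by both estimates.

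The genes closest in level to each of the 5 were found by the Euclidean distance of log2(TPM + 1) over the 3 libraries, among protein-coding genes outside the mitochondrial genome. For Lgals3 they were the translation factor gene Eef1a1 (distance 0.240), the MHC class I gene H2-D1 (0.513) and Tmsb4x (0.621), which encodes an actin-binding peptide. For Lgals1 they included Ptms (0.119), which encodes parathymosin, and the cyclophilin gene Ppia (0.183). For Lgals3bp they were the tetraspanin gene Cd63 (0.094), Trem2 (0.195) and the myosin light chain gene Myl6 (0.212). For Lgals9 they were Nfe2l2 (0.088), the gene of the antioxidant factor NRF2, the actin nucleation gene Arpc4 (0.109) and Tma7 (0.133). For Lgals8 they included Tnfrsf1a (0.031), which encodes a TNF receptor, and Tnfaip8 (0.034). Distances over 3 libraries of 1 group mainly compare levels.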

How the data were processed

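Cytosolic RNA of 3 mouse macrophage libraries was sequenced after ribosomal RNA depletion. Per the file headers, each library came with a gene table and a transcript table in the RSEM column format and a transcript table in the kallisto format. Per the deposited notes, values refer to mm10 and GENCODE M21. The authors deposited expected counts (estimated reads per gene), TPM and, per transcript, the percent of the gene's TPM. Tool versions and strand handling are not given in the sources used here.

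The 5 genes and all gene lists were chosen with earlier results of these data known. Named genes were the 5, all other galectin-type genes, the 4 highest of each further list and any in a count of 5 or fewer, the 3 nearest genes in level, and transcripts with at least 5% by either estimate. Some genes that the rule takes are not reported here. Marker lists are given as totals with the detected genes. Lgals9-203, Mgat5, Havcr2 and the genes named as at 0 or as exceptions were added after their values were seen. Levels are TPM as mean ± SD (n = 3), detected at 1 TPM or more. Expected counts were rounded and normalized by TMM in edgeR 4.0.16 (R 4.3.3), with its filter on low counts, an intercept-only design and a prior count of 2, after a test on simulated data; TMM factors were 1.04, 0.992 and 0.971. DESeq2 1.42.0 gave alternative size factors and dispersions. Tables were handled in pandas 2.3.3. A count of 0 allows up to 3 counts; such limits cover counting error only. All 55536 gene identifiers matched the annotation, and 26345 tRNA, spike-in and phiX entries were left out. Alternatives were other TPM estimates and scalings, a pseudocount, detection thresholds and leaving out each library.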

Additional observations from a re-analysis of the deposited data

How the results depend on the processing

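No paired analysis was possible because all libraries form 1 group. The level scale depended on the estimate: kallisto-format TPM gave 626 for Lgals3, 166 for Lgals1, 104 for Lgals3bp, 33.5 for Lgals9 and 15.7 for Lgals8, and TPM over protein-coding genes alone gave 5760, 1648, 1282, 328 and 147 in the same order; the order of the genes held in both. With kallisto-format TPM the mean log2 ratio was 1.93 for Lgals3 over Lgals1, 0.65 for Lgals1 over Lgals3bp and 1.66 for Lgals3bp over Lgals9. The kallisto-format share was 79.9% for Lgals3-203, 99.3% for Lgals1-201, 74.5% for Lgals3bp-201 and 48.2% for Lgals8-201. The higher levels in TPM over protein-coding genes alone follow from its scale, which divides by the part of a library's TPM that those genes hold. The cause of the shifts with the kallisto-format tables was not tested. The other 103 values of levels, ratios, spreads, shares and detection moved by less than the spread between libraries (for an SD, by less than itself, and for a count, within 1.5 times). Leaving out 1 of 3 libraries cannot move a mean by a whole SD, so those means could not fail this rule. The rule for an SD is wide as well. Without 1 library, the mean level ran from 1275 to 1422 TPM for Lgals3, 367 to 415 for Lgals1, 274 to 319 for Lgals3bp, 66.2 to 84.7 for Lgals9 and 31.8 to 35.7 for Lgals8. The log2 ratio of Lgals1 over Lgals3bp was 0.20 without replicate 2 and 0.46 without replicate 3. The SD of Lgals3 in log2 CPM ran from 0.05 without replicate 2 to 0.21 without replicate 1, and that of Lgals1 from 0.10 to 0.27 for the same libraries. The SD of Lgals9 ran from 0.14 without replicate 1 to 0.32 without replicate 2. Scalings of the library differences and shares by coding sequence were tried after seeing the data: the difference of each gene in its highest library kept its sign relative to the median of all genes, and the interferon-stimulated median in replicate 1 ran from 0.60 to 0.65. The kallisto-format shares of the Lgals8 coding sequences moved by more than the spread between libraries. They were 68.7% for 948 bases, 2.88% for 669 bases and 16.2% for 975 bases. All 5 genes passed a detection threshold of 5 TPM.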
